A study of Mus musculus with 12 samples.

Results

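The genes described here encode the machinery of apoptosis and necroptosis, 35 in all, chosen by symbol for their known function. All 35 were found in both tables of mouse heart RNA, among 17043 genes of one experiment and 17833 of the other. They fall into pro-survival BCL2 proteins, with Bcl2l13 counted among them (5 genes), effectors (2), BH3-only proteins (7) and mitochondrial factors with the apoptosome (4). The others are inhibitors of apoptosis (3), caspases (5), death receptors (4), receptor adaptors (3) and necroptosis proteins (2). The study comprised 12 libraries of total heart RNA in 4 groups of 3. Hearts labelled HDAC3 KO were compared with their own WT hearts, and NS-DADm hearts with a separate set of WT hearts. HDAC3 is a histone deacetylase that works in corepressor complexes, and the series, on the adult heart, asks which of its functions need no enzyme activity. NS-DADm is described in the series as an inactive form of HDAC3, and in the mouse line known by that name it is the deacetylase-activating domains of corepressors that are mutated. Exact age, sex, strain, the promoter behind the deletion and the number of animals per library are not analysed here, since no label states them.

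In apoptosis, BH3-only proteins sense damage and relieve the pro-survival BCL2 proteins of their hold on BAX and BAK1, the effectors that open the outer mitochondrial membrane. Released mitochondrial proteins then assemble the apoptosome around APAF1 and CASP9, or counter the inhibitors of apoptosis. Death receptors at the cell surface reach the caspases through FADD and CASP8, and when CASP8 is not active, RIPK1 and RIPK3 can pass the signal to MLKL, which breaks the plasma membrane in necroptosis. Cardiomyocytes renew poorly, so loss of these cells by either route is a long-studied part of heart failure.

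Promoter windows show what lies in front of the members that the results turn on. The stretches run from 250 to 51 bases before the RefSeq start and are written 5′ to 3′ on the strand of the gene, in build GRCm38.p6. Bcl2 (chr1:106714341-106714540, minus strand) is shown as the largest rise in KO, and Endog (chr2:30171274-30171473, plus strand) as the largest fall. Bcl2l11 (chr2:128125788-128125987, plus strand, the first of its 2 listed starts) is the BH3-only gene that fell, and Bax (chr7:45466949-45467148, minus strand) is an effector that rose. Capitals mark the GC box GGGCGG in Bcl2 and Endog, the forkhead motif GTAAACA in Bcl2l11 and a p53 half-site in Bax.
Bcl2: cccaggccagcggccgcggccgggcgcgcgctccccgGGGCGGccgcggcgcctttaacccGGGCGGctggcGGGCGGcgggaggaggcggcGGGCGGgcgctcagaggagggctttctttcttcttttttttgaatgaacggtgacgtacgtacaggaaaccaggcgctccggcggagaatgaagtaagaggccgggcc
Endog: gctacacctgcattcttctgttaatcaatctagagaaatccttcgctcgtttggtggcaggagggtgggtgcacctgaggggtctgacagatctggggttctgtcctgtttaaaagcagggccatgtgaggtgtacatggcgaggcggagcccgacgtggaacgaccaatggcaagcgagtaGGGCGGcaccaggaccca
Bcl2l11: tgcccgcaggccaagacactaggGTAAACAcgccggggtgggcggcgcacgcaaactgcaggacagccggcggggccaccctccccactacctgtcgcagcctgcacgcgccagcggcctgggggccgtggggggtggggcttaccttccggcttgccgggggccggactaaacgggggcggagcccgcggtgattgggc
Bax: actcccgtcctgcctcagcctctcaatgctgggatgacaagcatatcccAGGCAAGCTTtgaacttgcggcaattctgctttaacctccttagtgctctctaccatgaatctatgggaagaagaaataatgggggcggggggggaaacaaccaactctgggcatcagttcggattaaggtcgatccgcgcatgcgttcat
The Bcl2 window held 4 GC boxes and 71.0% G and C, and the Endog window held 1 GC box and 56.5%. Both strands were searched in 32851 RefSeq windows of the same length of 200 bases, of which 24.6% held a GC box, 2.58% the forkhead motif and 5.82% the p53 half-site. Windows were found for 32 of the 35 members, without Bik, Pmaip1 and Tnfrsf10b. A GC box lay in 17 of these 32, among them Bax and Bcl2l11, where it is left in lower case. A member was counted if any of its windows matched, and the 32 members had 44 windows. Counts of members are therefore not on the same footing as the percentages of windows. The forkhead motif lay in Bbc3 and Bcl2l11, and the p53 half-site in Bax and Bmf. None of the marked motifs overlaps another. The motif TCAAGGTCA of estrogen-related receptors lay in 0 member windows and in 0.323% of all, TATAAA lay in those of Cflar and Xiap and in 9.14% of all, and an NF-kappaB site lay in those of Aifm1, Bbc3 and Bcl2l1 and in 5.71% of all. These are matches of letters and say nothing of what binds there.

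Several facts of the libraries touch every comparison. Depth, estimated from the steps of low FPKM values, was 8.75 to 12.8 M fragments per library, where the labels' protocols give 60 M reads a sample on average. If the estimate holds, members near 1 FPKM rest on few fragments. HDAC3 RNA fell from 28.1 ± 1.19 FPKM (SD, n = 3) in WT to 7.90 ± 0.60 in KO, and stood at 29.8 ± 2.02 in the WT and 29.8 ± 0.804 in the mutant group of the NS-DADm experiment. The Y-linked gene Ddx3y was listed at 0 in all 3 WT libraries of the KO experiment and at 21.4 to 22.1 FPKM in the KO libraries, so sex and genotype cannot be told apart there. In the NS-DADm experiment Ddx3y was at most 0.06 FPKM, and Xist 15.1 to 20.6 FPKM, in all 6 libraries. All 13 macrophage markers rose in KO, their summed FPKM going from 314 to 342 in WT up to 1867 to 1909. Of 10 cardiomyocyte markers 8 fell and 1 rose, with sums of 86894 to 90862 in WT and 60685 to 61664 in KO. Fibroblast markers rose in 5 of 7 cases and fell in 1, and endothelial markers fell in 7 of 8. Lymphocyte markers summed to at most 9.33 FPKM in any library. In bulk RNA, fewer cells of a type and less RNA per cell cannot be told apart. Atrial markers rose in KO in 5 of 6 tested cases and fell in 1. Their sums were 155 to 164 FPKM in WT and 1960 to 2017 in KO. Most of the KO sum was Nppa, whose mean went from 116 to 1845.5 FPKM. Myl7 went only from 7.68 to 11.6 FPKM, and Stard10 fell from 22.6 to 9.67. Bmp10, untested, was listed at 0 in all WT libraries and at 0.25, 0 and 0 FPKM in KO. In the NS-DADm experiment the summed atrial markers were uneven within groups. Sums were high in 3 libraries (4777 FPKM in WT 3, 3847 in NS-DADm 1 and 6680 in NS-DADm 3). The others had 292 to 597 FPKM. Counts of called members in that experiment are given with and without these 3 libraries.

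**Figure D1:**
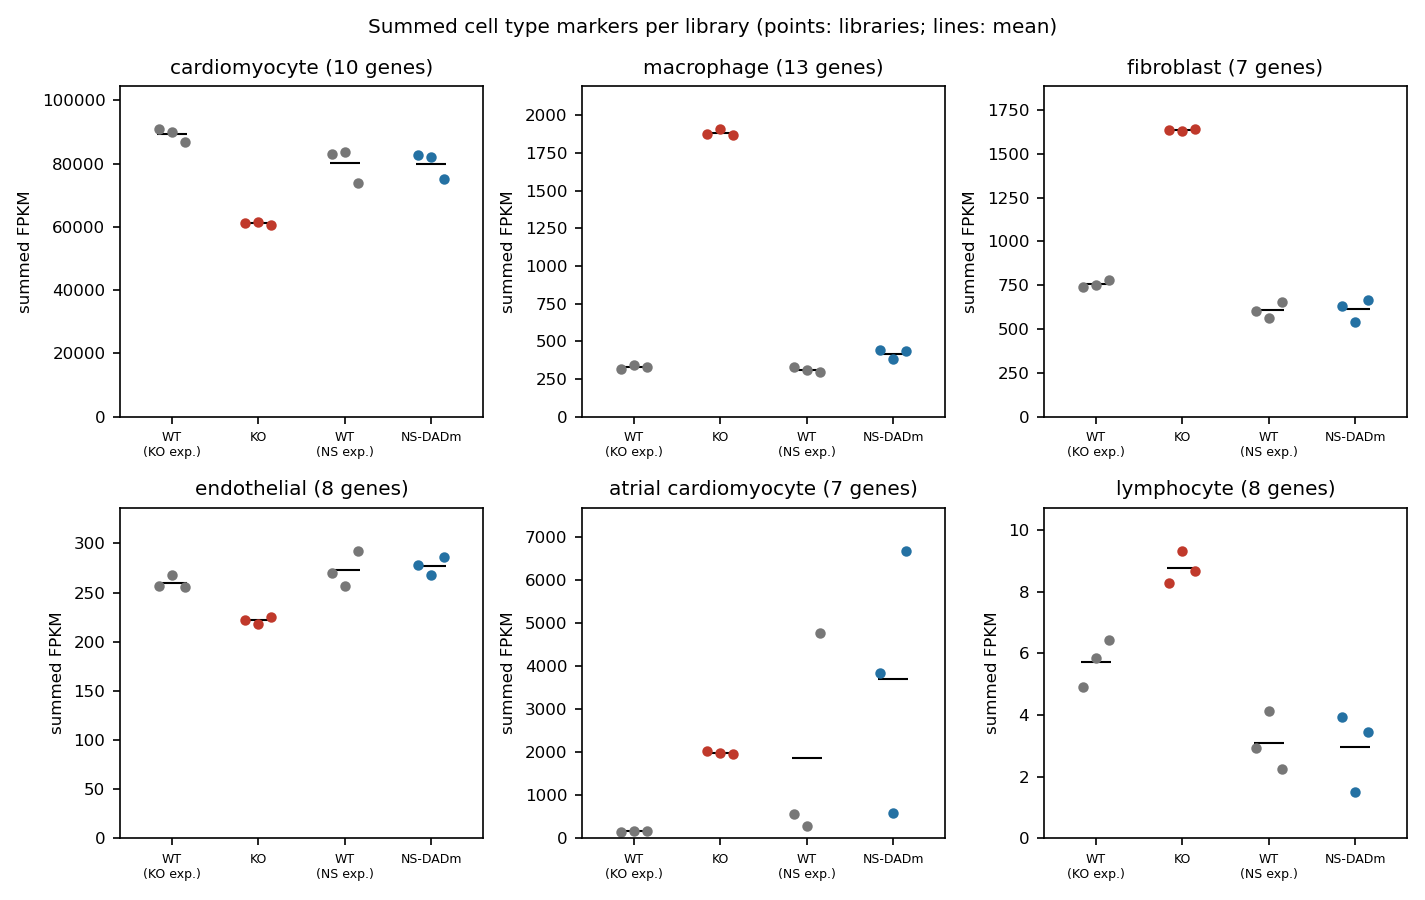
Summed FPKM of marker genes (y axis) in each library (points) of the 4 groups (x axis), with the group mean as a line. Macrophage markers reached 1867 to 1909 FPKM in KO against 314 to 342 in its WT, cardiomyocyte markers were lower in KO, and atrial markers spread from 292 to 4777 FPKM within the WT group of the NS-DADm experiment.

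The order of the members in WT hearts was much alike in both experiments. Mcl1 had the highest level, with 81.6 ± 0.897 FPKM (SD, n = 3) in the WT group of the KO experiment and 85.3 ± 2.14 in the other. Endog, Aifm1, Diablo and Tnfrsf12a followed in that order in both. Aifm1 (48.2 ± 1.65 FPKM) and Diablo (47.2 ± 2.08 FPKM) did not differ beyond their spread, nor did Bax (23.1 ± 3.04 FPKM) and Tnfrsf1a (23.1 ± 1.11 FPKM). At the low end, Bcl2 stood at 1.76 ± 0.165 FPKM, Bid at 0.807 ± 0.0945 and Pmaip1 at 0.237 ± 0.0666. Bcl2l1 held rank 9 with 17.0 ± 1.45 FPKM in one WT group and rank 6 with 31.3 ± 6.52 in the other, a pair of levels from tables that were normalized separately.

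In KO hearts most members were higher than in WT. Of 34 members tested, 22 rose, 6 fell and 6 did not pass limma's test at an adjusted p of 0.05, which is 82.4% called against 65.8% of all 11810 genes tested (38.2% higher, 27.6% lower). Adjusted p is limma's throughout, by the Benjamini-Hochberg method over all genes of the comparison. Log2 changes are on the log2(FPKM + 1) scale, where changes of genes near 1 FPKM come out too small. Of the 28 calls, 14 had a log2 change of at least 0.5 in size, as had 29.0% of all genes tested. Libraries of KO and WT were without overlap for 28 of the 35 members, Pmaip1 among them, and for 69.8% of all genes tested. The median log2 change was 0.32 for the members and 0.060 for all genes. With each library centred on its median gene the members split into 17 higher and 9 lower, and all genes into 3640 higher and 4150 lower instead of 4515 and 3260. Pmaip1 stayed below the 1 FPKM needed for a test, and Bid passed that filter through the KO libraries alone, which fixes its direction. In NS-DADm hearts 0 of 33 members were called by limma, against 2.69% of all 11705 genes (1.26% higher, 1.43% lower, and 1.55% called with a log2 change of at least 0.5 in size).

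**Figure D2:**
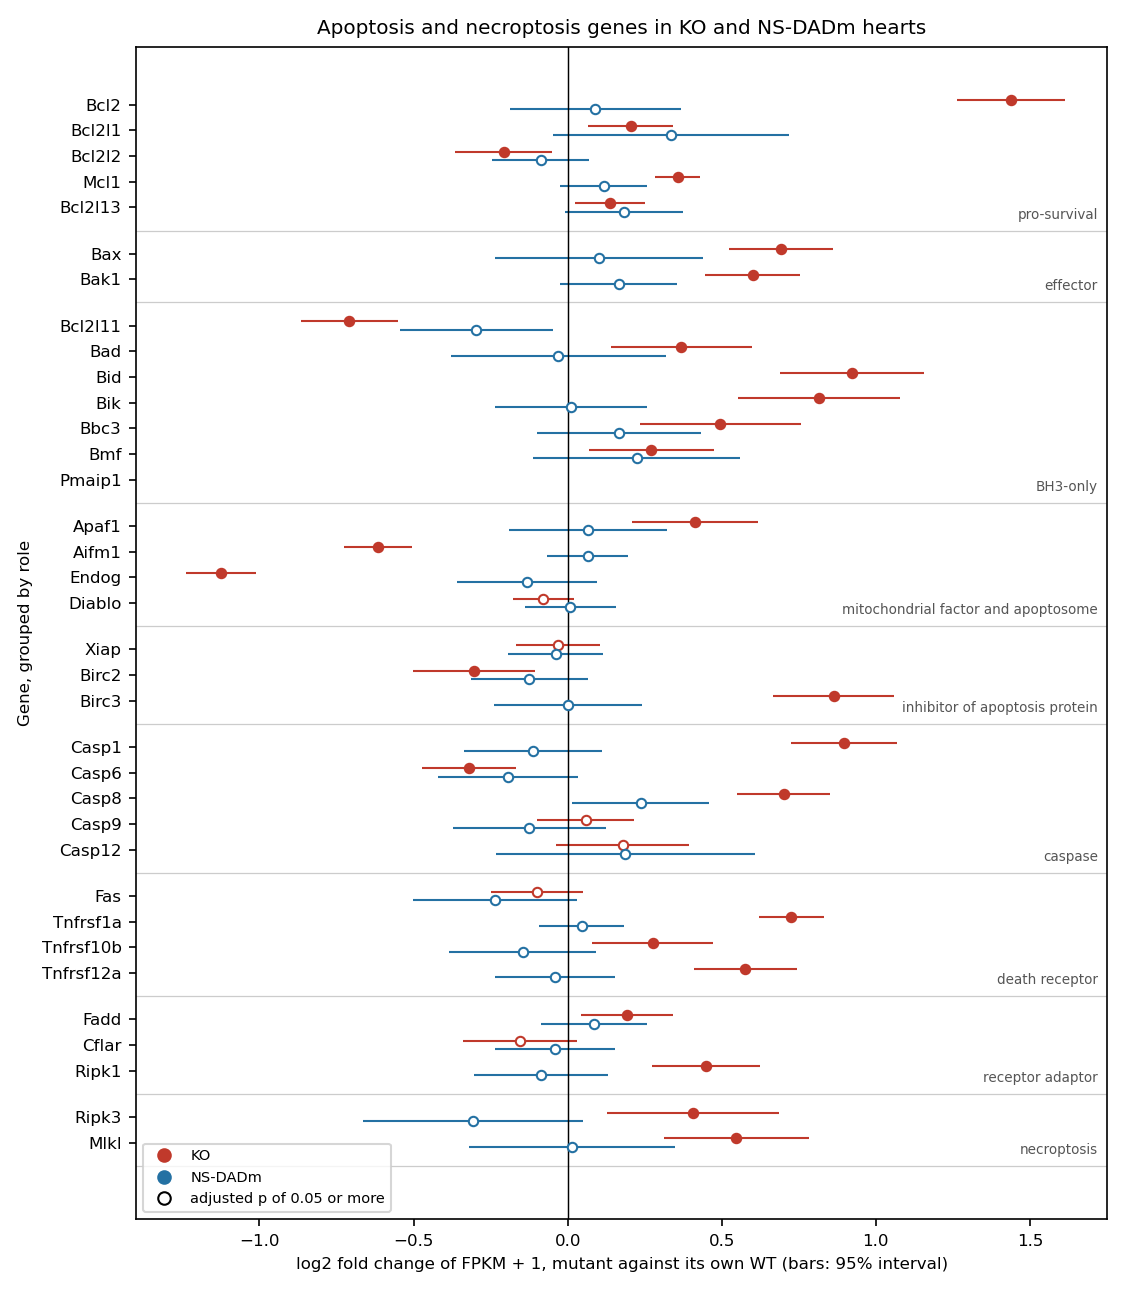
Log2 change of each gene (x axis, bars give the 95% interval) in KO (red) and NS-DADm (blue) hearts against their own WT, with genes on the y axis grouped by role and open symbols where the adjusted p is 0.05 or more. In KO 28 of 34 genes carry filled symbols, from -1.13 for Endog to 1.44 for Bcl2, and in NS-DADm none of 33; with centring on the median gene 5 of the KO rises are lost and 3 falls are gained.

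Apart from Bcl2l13, the proteins of the pro-survival group bind and restrain BH3-only proteins and effectors. In KO 4 of the 5 genes counted in this group rose, Bcl2l13 among them, and 1 fell. Of all genes tested in KO 38.2% rose and 27.6% fell. The summed level of all 5 went from 136 ± 1.13 FPKM (SD, n = 3) in WT to 165 ± 2.08 in KO. Bcl2, the founding member of the family, was listed at 1.81, 1.58 and 1.90 FPKM in the WT libraries and at 6.84, 6.05 and 6.58 in the KO libraries. All KO libraries lay above all WT libraries, and this was the largest rise among the members. The ratio of the means was 3.68 and the log2 change 1.44 ± 0.08 (SE, limma adjusted p = 5.11e-08). Bcl2 lies on chromosome 1 (106538178 to 106714274, minus strand) and overlaps an annotated antisense gene. Nothing here tells whether reads were counted by strand, so overlapping genes on opposite strands may share reads. Mcl1, a short-lived guard protein that cardiomyocytes depend on in mice, rose from 81.6 ± 0.897 to 105 ± 1.85 FPKM (log2 change 0.36, limma adjusted p = 3.88e-06). Bcl2l1, which encodes BCL-XL, went from 17.0 to 19.7 FPKM (limma adjusted p = 0.0137), and Bcl2l13, a mitochondrial receptor for mitophagy, from 15.5 to 17.1 FPKM (limma adjusted p = 0.0346). Bcl2l2, which encodes BCL-W, fell from 19.8 to 17.0 FPKM (limma adjusted p = 0.0248). The calls of Bcl2l1 and Bcl2l13 were lost with centring on the median gene, that of Bcl2l13 also without WT library 1 or 3 or KO library 2 or 3, and that of Bcl2l2 with FPKM rescaled to an equal sum and without WT library 3 or KO library 1. In NS-DADm hearts Bcl2 was at 2.61, 1.73 and 1.93 FPKM against 2.00, 1.83 and 1.82 in WT, and these groups overlapped (log2 change 0.090, limma adjusted p = 0.744). Mcl1 went from 85.3 to 92.7 FPKM there, with a log2 change of 0.12 that did not pass the test (limma adjusted p = 0.355), although its groups did not overlap.

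Both effectors rose in KO, as did 38.2% of all genes tested. Bax was listed at 20.7, 22.1 and 26.5 FPKM in WT and at 37.0, 37.9 and 38.4 in KO. The KO libraries were tightly grouped and stood clear of WT, at 1.63 times the WT mean (log2 change 0.69 ± 0.08 SE, limma adjusted p = 1.4e-05). Bak1, the partner effector on chromosome 17, read 12.4, 13.9 and 13.5 FPKM in WT and 21.7, 18.6 and 21.8 in KO. Its groups were also separate, with a ratio of 1.56 and a log2 change of 0.60 ± 0.07 (SE, limma adjusted p = 2.17e-05). Bax (chromosome 7, 45461697 to 45466898, minus strand) overlaps a predicted protein-coding gene on its own strand, and Bak1 (27019810 to 27029009, minus strand) overlaps Ggnbp1 on the other strand. NS-DADm libraries held Bax at 22.1, 20.8 and 18.7 FPKM against 24.8, 16.5 and 16.9 in WT, where 1 WT library lay above all others. Bak1 stood at 17.7, 17.2 and 16.7 FPKM in NS-DADm and at 16.8, 13.5 and 15.5 in WT, and neither gene passed the test (limma adjusted p = 0.766 for Bax and 0.332 for Bak1).

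The ratios between guards and effectors differed between KO and WT libraries, where sex and genotype cannot be told apart. Summed FPKM of Bcl2, Bcl2l1, Bcl2l2 and Mcl1 over that of Bax and Bak1 was 3.59, 3.32 and 3.04 in WT and 2.53, 2.58 and 2.49 in KO. Every KO library lay below every WT library. The Bcl2 to Bax ratio went the other way, from 0.0873, 0.0715 and 0.0716 in WT to 0.185, 0.160 and 0.171 in KO, again without overlap. With 3 libraries against 3 an exact two-sided permutation test cannot give a p below 0.10, and the ratios are given as values without another test. Mcl1 supplied 67.9% ± 1.60 (SD, n = 3) of the guards' summed FPKM in WT and 70.8% ± 0.379 in KO, while the share of Bcl2 went from 1.47% ± 0.128 to 4.38% ± 0.227. In the NS-DADm experiment guards over effectors averaged 4.05 ± 0.553 in WT and 4.05 ± 0.295 in NS-DADm, and Bcl2 to Bax 0.0998 ± 0.0167 and 0.101 ± 0.0176, with overlapping groups.

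**Figure D3:**
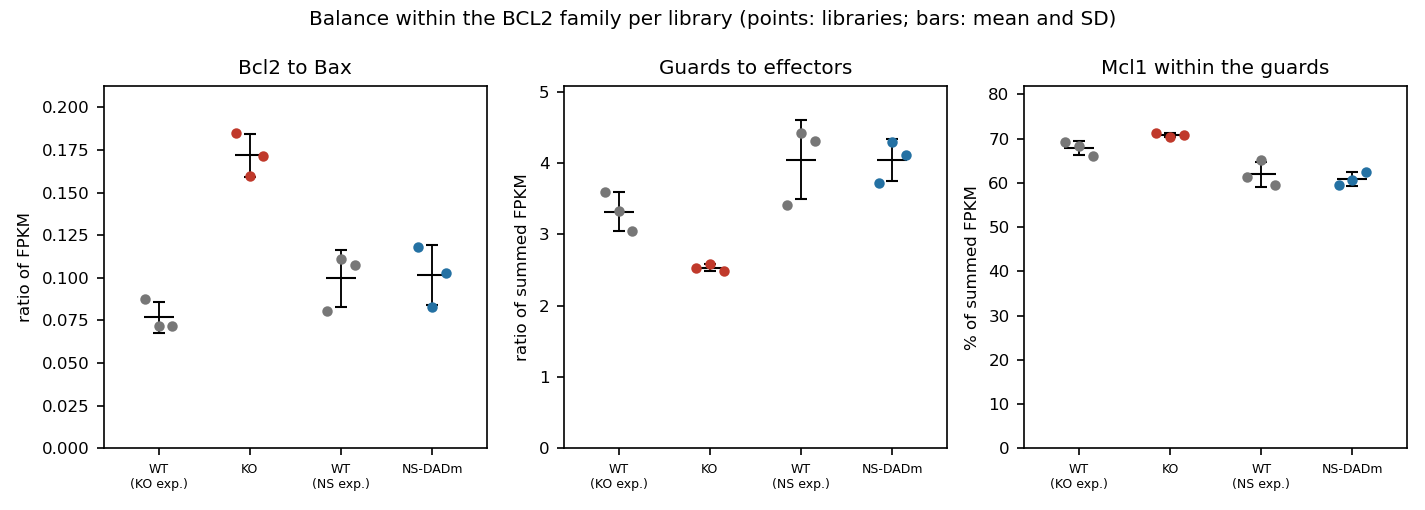
Ratio of Bcl2 to Bax FPKM (left), ratio of the summed FPKM of 4 guards to that of 2 effectors (middle) and share of Mcl1 in the guards in percent (right), for each library (points) of the 4 groups (x axis) with mean and SD. Bcl2 to Bax was 0.160 to 0.185 in KO against 0.0715 to 0.0873 in its WT, guards to effectors was 2.49 to 2.58 against 3.04 to 3.59, and both ratios overlapped between NS-DADm and its WT.

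Among the BH3-only genes, which carry damage signals to the mitochondria, 5 of the 6 tested rose in KO and 1 fell. The shares of all genes tested were 38.2% higher and 27.6% lower. Bik (chromosome 15, 83526862 to 83544634, plus strand), whose protein sits largely at the endoplasmic reticulum, was listed at 4.94, 4.73 and 7.18 FPKM in WT and at 10.41, 11.02 and 10.08 in KO. WT library 3 was the highest of its group and still below every KO library, and the ratio of means was 1.87 (log2 change 0.82 ± 0.12 SE, limma adjusted p = 0.00012). Bid, which CASP8 cleaves to link death receptors with mitochondria, read 0.70, 0.88 and 0.84 FPKM in WT and 1.98, 2.50 and 2.83 in KO. All WT values lay under 1 FPKM, so the log2 change of 0.92 ± 0.11 (SE, limma adjusted p = 1.9e-05) had its sign fixed by the filter, and without any one KO library the gene was not tested. Bid (chromosome 6, 120891930 to 120916853, minus strand) overlaps the end of Bcl2l13 on the opposite strand. Bcl2l11 (chromosome 2, 128126038 to 128162547, plus strand) encodes BIM, a strong activator of the effectors, and moved against the rest of its group. Its values were 4.29, 4.11 and 3.99 FPKM in WT and 2.15, 2.21 and 2.06 in KO. The groups were far apart relative to their spread, with KO at 0.518 of the WT mean (log2 change -0.71 ± 0.07 SE, limma adjusted p = 6.81e-06). Bbc3 (PUMA) went from 1.45 to 2.47 FPKM, Bad from 14.8 to 19.3, with overlapping groups, and Bmf from 1.17 to 1.63 (limma adjusted p = 0.00352, 0.0088 and 0.0228), and the call of Bmf was lost with centring on the median gene and without WT library 1 or 3 or KO library 2 or 3. Pmaip1 (NOXA), untested, read 0.22, 0.18 and 0.31 FPKM in WT and 0.67, 0.92 and 0.53 in KO, without overlap. In NS-DADm hearts Bcl2l11 was at 3.65, 4.05 and 4.90 FPKM against 4.77, 5.66 and 5.67 in WT, and the highest NS-DADm library lay above the lowest WT library. This log2 change of -0.30 had an unadjusted p of 0.0245 in limma and did not pass the adjustment (adjusted p = 0.191). Bik read 5.35, 4.13 and 5.22 FPKM in NS-DADm and 5.24, 4.30 and 4.98 in WT, and Bid 0.83, 0.43 and 0.53 FPKM against 0.96, 0.86 and 0.58, with overlap in both genes.

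The mitochondrial factors held the largest fall. Endog, a nuclease of the mitochondrial intermembrane space that can cut nuclear DNA after its release, was listed at 63.8, 63.1 and 57.0 FPKM in WT and at 28.3, 26.5 and 27.8 in KO. The KO mean was 0.449 of the WT mean, with groups far from overlap (log2 change -1.13 ± 0.05 SE, limma adjusted p = 1.22e-08). Endog lies on chromosome 2 (30171493 to 30174069, plus strand), where Spout1 overlaps it on the other strand. Aifm1 (48474944 to 48513563 on the X chromosome, minus strand) encodes a flavoprotein that supports respiratory chain assembly and moves to the nucleus in some forms of death. Its values were 48.4, 46.5 and 49.8 FPKM in WT and 31.7, 32.5 and 29.3 in KO. All 3 KO libraries were lower, at 0.646 of the WT mean (log2 change -0.62 ± 0.05 SE, limma adjusted p = 1.17e-06). Aifm1 and Xiap are the X-linked members, and on that chromosome 66.8% of tested genes were called in KO against 65.8% elsewhere. These shares do not speak to any single gene, and sex and genotype cannot be told apart for Aifm1 either. Diablo, which encodes a protein that displaces the inhibitors of apoptosis, went from 47.2 to 44.7 FPKM and did not pass the test (limma adjusted p = 0.141), though it was called lower with centring on the median gene. Apaf1, the scaffold of the apoptosome, rose from 1.21 to 1.94 FPKM (limma adjusted p = 0.00229). In sum, the 4 genes went from 158 ± 3.68 FPKM (SD, n = 3) to 105 ± 0.502. Cardiomyocyte markers fell in the same libraries, in 8 of 10 cases, with sums of 86894 to 90862 in WT and 60685 to 61664 in KO and none at 0, and their part in these falls was not tested. The NS-DADm libraries held Endog at 39.1, 49.1 and 46.7 FPKM against 55.4, 45.8 and 46.8 in WT, and Aifm1 at 40.8, 43.7 and 43.6 against 39.6, 40.8 and 41.8. Both pairs of groups overlapped (limma adjusted p = 0.525 and 0.607).

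The inhibitors of apoptosis split in KO, with 1 gene higher, 1 lower and 1 not called, where 65.8% of all genes tested were called. Birc3 (chromosome 9, 7848699 to 7873186, minus strand) encodes cIAP2, a ubiquitin ligase that acts on RIPK1 and is itself a target of NF-kappaB. It was listed at 3.44, 4.13 and 3.83 FPKM in WT and at 6.75, 8.23 and 8.25 in KO. KO library 1 was the lowest of its group and still well above WT, and the ratio was 2.04 (log2 change 0.86 ± 0.09 SE, limma adjusted p = 8.23e-06). Birc2, its neighbour and the gene of cIAP1, fell from 10.5 to 8.33 FPKM (log2 change -0.30, limma adjusted p = 0.0119). The copies are related in sequence, so reads shared between them are uncertain. Xiap, the direct caspase inhibitor, was 11.8 FPKM in WT and 11.5 in KO (95% interval of the log2 change -0.17 to 0.11). In the NS-DADm experiment Birc3 read 3.11, 4.25 and 3.82 FPKM in WT and 3.55, 3.88 and 3.70 in NS-DADm, with all mutant libraries inside the WT range (limma adjusted p = 0.996).

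Of the 5 caspases 2 rose, 1 fell and 2 were not called in KO, where 65.8% of all genes tested were called. Casp1 (chromosome 9, 5298517 to 5307265, plus strand) encodes the protease of inflammasomes that matures interleukin-1 beta. Its levels were 4.08, 3.97 and 3.97 FPKM in WT and 9.36, 8.06 and 7.64 in KO. The WT libraries were nearly equal and all KO libraries lay above them, at a ratio of 2.08 (log2 change 0.90 ± 0.08 SE, limma adjusted p = 1.99e-06). Casp8 (chromosome 1, 58795374 to 58847503, plus strand) starts apoptosis at death receptors and holds necroptosis in check. It read 4.77, 4.25 and 4.43 FPKM in WT and 8.34, 7.55 and 7.85 in KO. These groups did not overlap, and the ratio was 1.77 (log2 change 0.70 ± 0.07 SE, limma adjusted p = 5.29e-06). Casp6, an executioner, fell from 10.8 to 8.42 FPKM (log2 change -0.32, limma adjusted p = 0.00179). Casp9, the initiator in the apoptosome, went from 4.11 to 4.32 FPKM (95% interval of the log2 change -0.10 to 0.22), and Casp12, an inflammatory-type caspase linked to the endoplasmic reticulum in mice, from 7.08 to 8.07 (-0.04 to 0.40). Casp12 was called higher with FPKM rescaled to an equal sum and without WT library 3. Macrophage markers rose beside Casp1 and Casp8, in 13 of 13 cases, with sums of 314 to 342 FPKM in WT and 1867 to 1909 in KO and none at 0, and their part in these rises was not tested. The NS-DADm hearts had Casp8 at 4.82, 5.32 and 4.69 FPKM and their WT at 3.49, 4.28 and 4.39, so that every NS-DADm library was the higher. The log2 change of 0.24 had an unadjusted p of 0.0392 in limma and an adjusted p of 0.242. Casp1 stood at 2.42, 2.57 and 2.95 FPKM in NS-DADm and at 2.74, 3.16 and 2.92 in WT, with overlap (limma adjusted p = 0.594).

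Death receptors take signals of the tumour necrosis factor family, and 3 of the 4 rose in KO, against 38.2% of all genes tested. Tnfrsf1a (chromosome 6, 125349362 to 125362484, plus strand), the main receptor of TNF on most cells, was listed at 23.0, 22.1 and 24.3 FPKM in WT and at 39.8, 38.4 and 38.4 in KO. The KO libraries formed a narrow group above WT, at a ratio of 1.68 (log2 change 0.73 ± 0.05 SE, limma adjusted p = 2.1e-07). Tnfrsf12a (chromosome 17, 23675445 to 23677468, minus strand) encodes Fn14, the receptor of TWEAK, which lacks a death domain. It read 40.7, 41.3 and 40.1 FPKM in WT and 62.2, 69.0 and 53.4 in KO. Spread was wider among the KO libraries, all of them higher than WT (ratio 1.51, log2 change 0.58 ± 0.08 SE, limma adjusted p = 5.32e-05). Tnfrsf10b, the TRAIL receptor of mice, rose from 1.36 to 1.85 FPKM (limma adjusted p = 0.0176), a call lost with centring on the median gene and without WT library 3 or KO library 1 or 3. Fas, the receptor of Fas ligand, was 13.3 FPKM in WT and 12.4 in KO and was not called (95% interval of the log2 change -0.25 to 0.05), but was called lower with centring on the median gene. The summed level of the 4 receptors was 78.5 ± 0.578 FPKM in WT and 115 ± 8.77 in KO (SD, n = 3 each). Fibroblast markers, with sums of 739 to 783 FPKM in WT and 1632 to 1641 in KO and none at 0, moved with the receptor genes, as did the macrophage markers, and their part was not tested. In NS-DADm hearts Tnfrsf1a read 22.6, 20.9 and 21.2 FPKM against 20.9, 20.8 and 20.9 in WT, just without overlap (log2 change 0.046, limma adjusted p = 0.741). Tnfrsf12a stood at 33.5, 29.2 and 30.3 FPKM in NS-DADm and at 29.0, 35.7 and 31.2 in WT, with overlap (limma adjusted p = 0.84).

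Adaptors below the receptors rose in 2 of 3 cases in KO, and both necroptosis genes rose, against 38.2% of all genes tested. Ripk1 encodes the kinase that turns TNF receptor signals towards survival or death. It was listed at 3.51, 3.54 and 3.52 FPKM in WT and at 4.56, 5.50 and 5.50 in KO. The lowest KO library exceeded all WT libraries (ratio 1.47, log2 change 0.45 ± 0.08 SE, limma adjusted p = 0.000497). Ripk1 (chromosome 13, 34002363 to 34037147, plus strand) overlaps Serpinb6a on the other strand. Fadd, the adaptor that recruits CASP8, rose from 7.42 to 8.64 FPKM (limma adjusted p = 0.0266). Cflar encodes the CASP8 regulator cFLIP and went from 7.19 to 6.36 FPKM without a call (95% interval of the log2 change -0.34 to 0.03). With centring on the median gene the call of Fadd was lost and Cflar was called lower. Fadd also lost its call without WT library 2 or 3 or KO library 1 or 3, and Cflar was called lower without WT library 2 or KO library 1. Ripk3 (chromosome 14, 55784995 to 55788865, minus strand), the kinase that activates MLKL, read 1.03, 1.5 and 1.86 FPKM in WT and 2.15, 2.56 and 2.02 in KO. Groups were separate by a small margin, between WT library 3 and KO library 3 (ratio 1.53, log2 change 0.41 ± 0.13 SE, limma adjusted p = 0.0147). The call was lost without WT library 1 (adjusted p = 0.0506) or KO library 2 (adjusted p = 0.061), within a range of 0.00399 to 0.061 over the alternatives of limma's fit. Mlkl (chromosome 8, 111311797 to 111338177, minus strand), whose protein breaks the membrane, was at 2.46, 1.87 and 2.59 FPKM in WT and at 3.57, 4.38 and 3.53 in KO. Its groups did not overlap (ratio 1.66, log2 change 0.55 ± 0.11 SE, limma adjusted p = 0.000917). The 13 macrophage markers, each higher in KO, moved with these genes too, and their part in the rises was not tested. NS-DADm libraries had Ripk3 at 1.47, 1.21 and 1.01 FPKM and WT libraries 2.24, 1.19 and 1.93, and the log2 change of -0.31 did not pass (95% interval -0.66 to 0.05, limma adjusted p = 0.34). Mlkl read 2.32, 1.94 and 2.06 FPKM in NS-DADm and 1.73, 1.73 and 2.89 in WT, and Ripk1 3.39, 2.75 and 3.04 FPKM against 3.11, 3.42 and 3.38, with overlap in both.

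**Figure D4:**
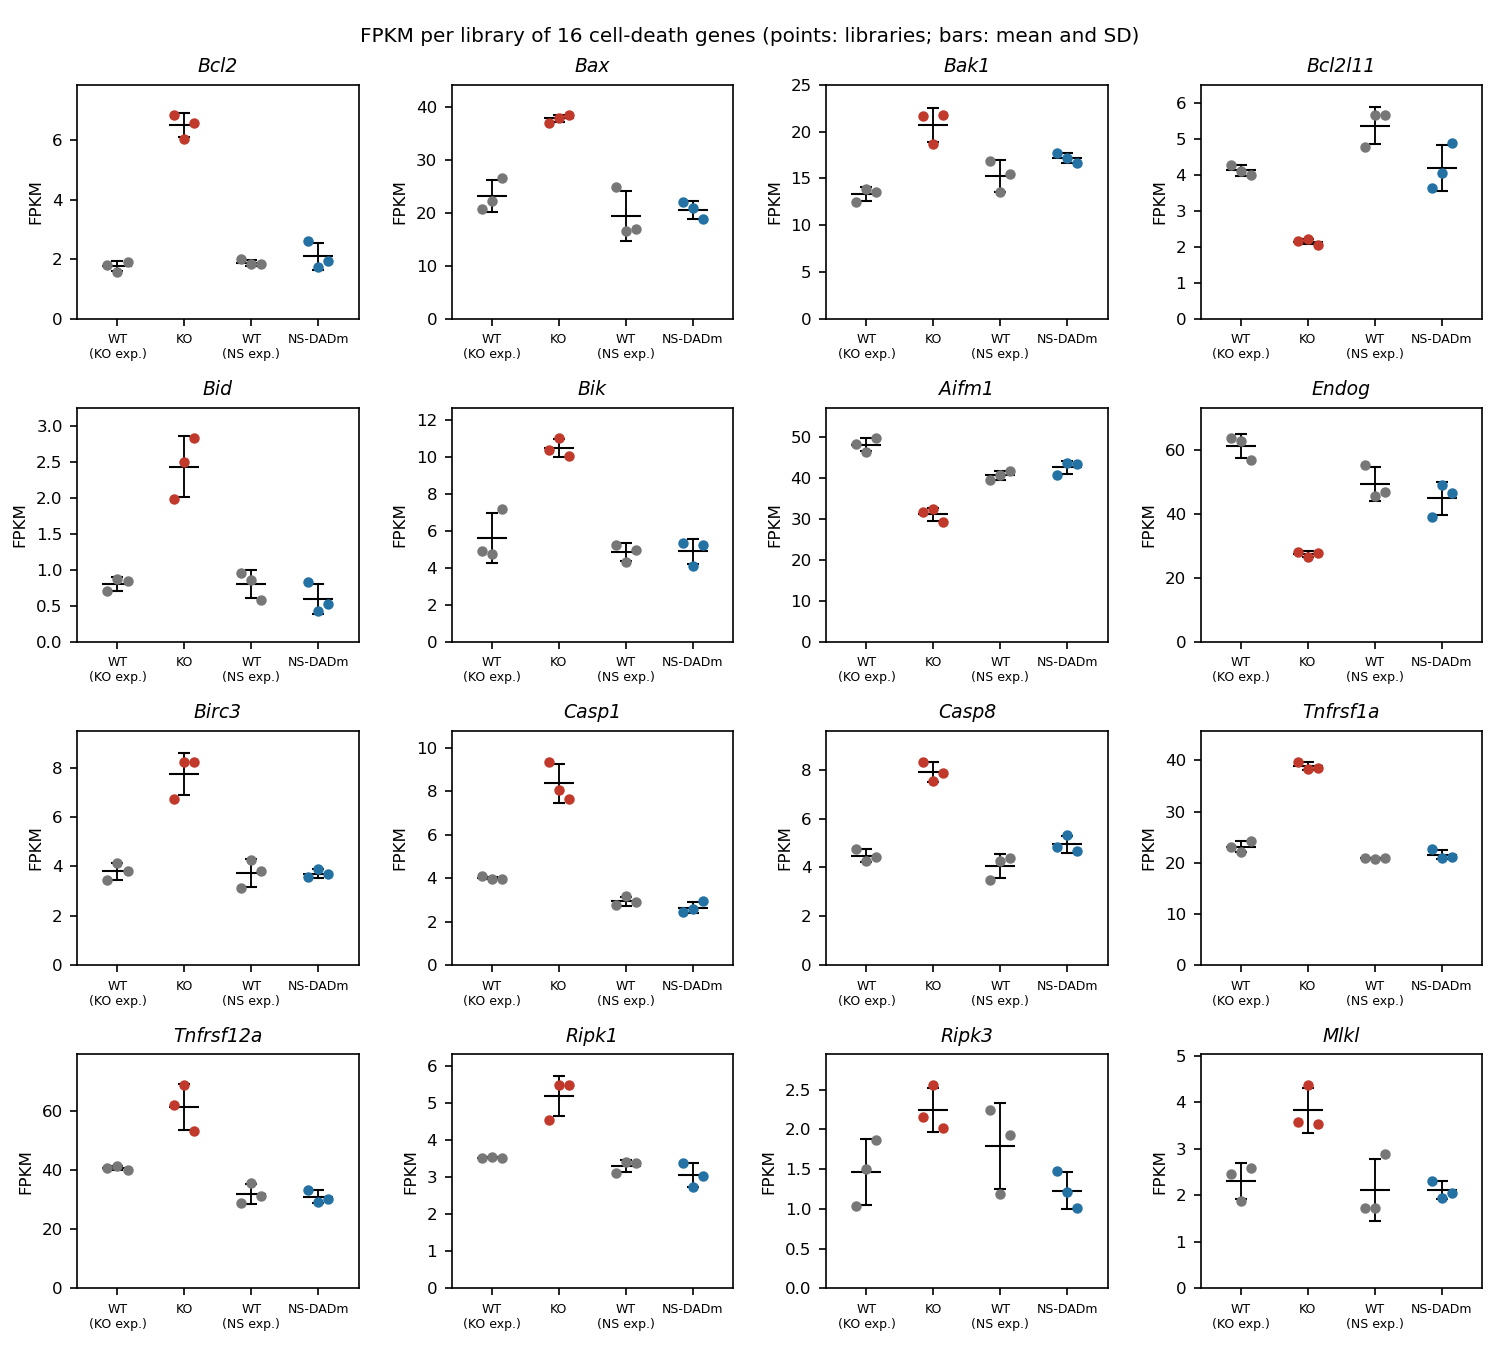
FPKM (y axis) of the 16 genes described in full, for each library (points) of the 4 groups (x axis) with mean and SD. KO libraries stand apart from their WT in all 16, lower in Bcl2l11, Aifm1 and Endog and higher in the other 13, whereas NS-DADm libraries overlap with their WT in all but Casp8 and Tnfrsf1a.

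Across all 33 members tested in NS-DADm hearts the changes were small. An unadjusted limma p under 0.05 was found for 2 of the 33 members, Bcl2l11 and Casp8, and for 2153 of all 11705 genes tested. No member was called by limma, and the lowest adjusted p was 0.191. The authors' deposited table has 0 members past its thresholds as well, where the share of all genes was not counted. The 95% interval of the log2 change lay within ±0.5 for 27 members and within ±1 for all 33. The 6 with wider reach were Bcl2l1 (up to 0.72), Casp12 (up to 0.61), Bmf (up to 0.56), Ripk3 (down to -0.66), Bcl2l11 (down to -0.54) and Fas (down to -0.50). Libraries were without overlap for 3 members, Mcl1, Casp8 and Tnfrsf1a, all higher, where 24.2% of all genes tested were without overlap. The median log2 change was 0.0084 for the members and -0.023 for all genes. Macrophage markers rose in 5 of 12 tested cases in the same libraries, with sums of 297 to 331 FPKM in WT and 385 to 440 in NS-DADm, and cardiomyocyte markers in 0 of 10. Limma again called 0 members with the atrial markers as a covariate and without the 3 libraries rich in them, both added after their spread was seen. Without those libraries the log2 changes of the 15 members described in full and tested there ran from -0.30 for Bcl2l11 to 0.38 for Casp8, with Bcl2 at -0.094, from 2 WT libraries and 1 NS-DADm library that is taken to vary like the WT pair.

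The effects in KO and NS-DADm were compared directly over all 12 libraries, each mutant against its own WT. Of 34 members tested, 15 had a higher and 3 a lower effect in KO than in NS-DADm, 52.9% called against 45.9% of 11662 genes (28.2% higher, 17.7% lower). Bid, at 1.10, is counted among the 15, but all its libraries outside KO were under 1 FPKM, so the filter fixed the sign of its difference and the test adds nothing to it. With a pseudocount of 0.1 its value was 1.86, and without any one KO library it was not tested. Bcl2 differed by 1.35 ± 0.14 on the log2 scale (SE, 95% interval 1.04 to 1.66, limma adjusted p = 4.26e-06). Casp1 differed by 1.01 (limma adjusted p = 1.2e-05). The receptor Tnfrsf1a differed by 0.68 (0.53 to 0.83, limma adjusted p = 3.97e-06). On the lower side stood Endog with -0.99 (-1.25 to -0.73, limma adjusted p = 1.45e-05), Aifm1 with -0.68 (limma adjusted p = 5.34e-06) and Bcl2l11 with -0.41 (limma adjusted p = 0.0189). Among the pro-survival genes other than Bcl2 and Mcl1 no difference was called, with intervals of -0.53 to 0.27 for Bcl2l1, -0.34 to 0.10 for Bcl2l2 and -0.26 to 0.17 for Bcl2l13. Centring on the median gene moved the median difference of all genes from 0.079 to -0.025. Relative to that median gene 12 members were higher and 3 lower, Bcl2 differed by 1.25 and Endog by -1.10, and the calls of Mcl1, Mlkl and Tnfrsf10b were lost, while all genes split into 2476 higher and 2773 lower instead of 3285 and 2063. Without the 3 libraries high in atrial markers, a choice made after seeing them, 12 members were higher and 4 lower, Casp8, Ripk3, Mlkl and Tnfrsf10b lost their calls, and Bad and Bcl2l1 gained one. The call of Mlkl (limma adjusted p = 0.0356) was also lost without WT library 2 or KO library 2 of the KO experiment, and without WT library 3 or NS-DADm library 2 or 3 of the other.

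**Figure D5:**
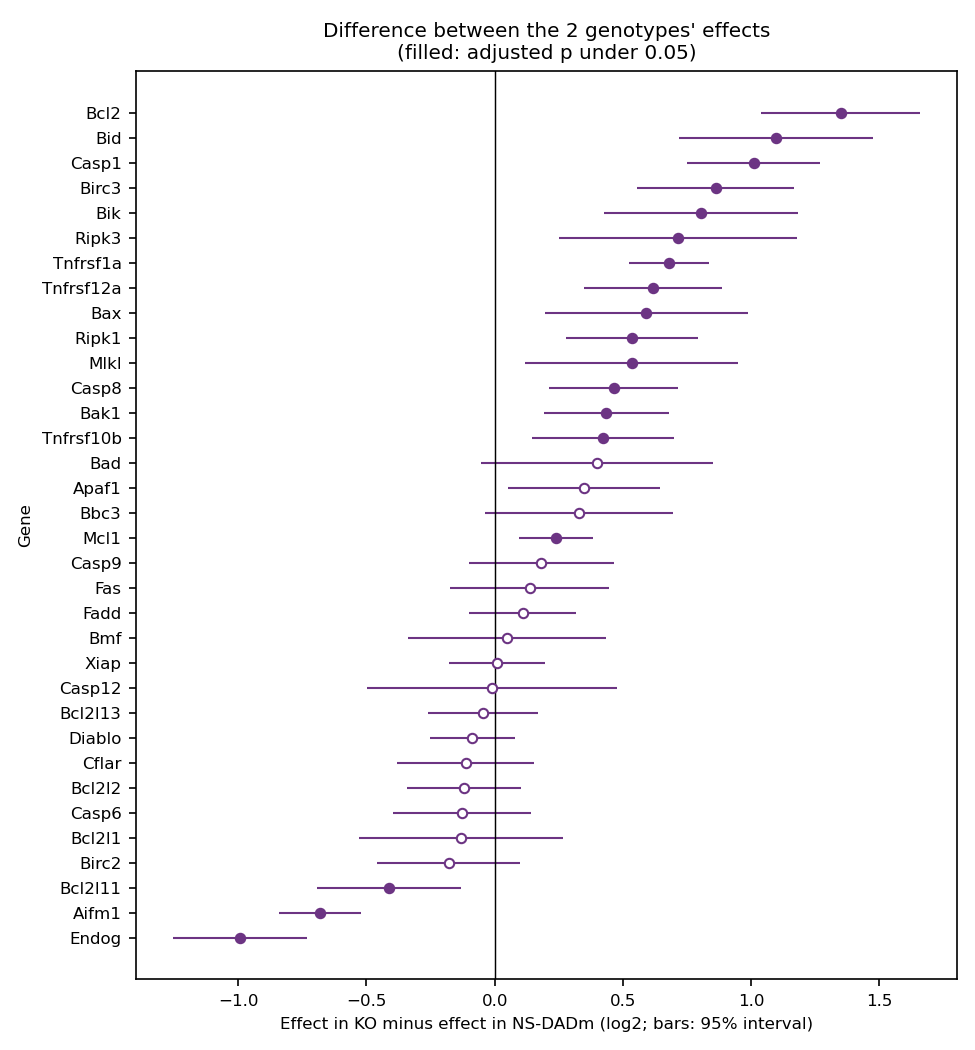
Effect in KO minus effect in NS-DADm (x axis, log2, bars give the 95% interval) for the 34 genes tested (y axis), filled where the adjusted p is under 0.05. Bcl2 stands highest at 1.35 and Endog lowest at -0.99, and 18 genes are filled, 3 of which (Mcl1, Mlkl and Tnfrsf10b) lose the call with centring on the median gene.

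Other genes of the same pathways were counted from 10 lists with 73 genes. In KO 63 were tested, of which 36 rose and 12 fell (76.2%, against 65.8% of all genes), and in NS-DADm 3 of 54 rose and 2 fell (9.26%, against 2.69%). Over all genes tested in KO 38.2% rose and 27.6% fell, and the counts of single lists stand beside these shares. Among caspases outside the members Casp4, an inflammatory caspase, rose in KO from 4.11 to 9.52 FPKM (limma adjusted p = 1.13e-06). Other BCL2 family genes rose in 5 of 7 cases and fell in 1, led by the near-identical copies Bcl2a1b (2.45 to 20.4 FPKM), Bcl2a1d (0.487 to 4.39) and Bcl2a1a (0.363 to 3.27), between which reads cannot be assigned with confidence, and the last pair was tested only through KO libraries. Pore and release genes fell in 4 of 6 cases, with Ppif, the pore regulator cyclophilin D, going from 176 to 73.1 FPKM (log2 change -1.26, limma adjusted p = 2.5e-10), Cycs, cytochrome c, from 526 to 380 and Vdac1 from 603 to 503. These falls, too, came with lower cardiomyocyte markers.

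Receptor ligands and other receptors rose in 3 of 5 tested cases, among them Tnfrsf1b from 3.08 to 6.63 FPKM (limma adjusted p = 3.8e-06), Tnfsf12, which encodes TWEAK, from 11.5 to 15.5, and Ltbr from 18.1 to 23.1. Receptor signalling genes rose in 7 of 12 cases and fell in 2, with Tradd going from 1.68 to 4.03 FPKM, Traf1 from 0.717 to 1.83 and Cradd from 8.67 to 4.54. Genes of other lytic death rose in 6 of 7 cases, Zbp1, a sensor upstream of RIPK3, from 3.39 to 9.93 FPKM (limma adjusted p = 3.83e-07), the inflammasome adaptor Pycard from 2.89 to 8.04 and Il1b from 0.683 to 2.96. Inhibitors of apoptosis outside the members rose in 2 of 3 cases, Birc5 from 1.24 to 5.72 FPKM and Naip2 from 0.52 to 1.48. DNA fragmentation genes rose once and fell in 2 of 4 cases, with Dnase2a going from 4.63 to 8.28 FPKM, Parp1 from 15.81 to 13.04 and Dffa from 15.1 to 13.3. Traf1, Il1b, Naip2 and Il18, the last counted among the 6 rises of other lytic death, were under 1 FPKM in every WT library, which fixes their direction.

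Among p53 and its targets 6 of 9 rose and 1 fell in KO. Cdkn1a, the cell cycle inhibitor p21, went from 18.9 ± 1.28 to 92.3 ± 1.06 FPKM (SD, n = 3; limma adjusted p = 6.79e-11). Phlda3 read 10.46, 7.01 and 6.53 FPKM in WT and averaged 16.5 in KO, and Trp53 itself went from 10.7 to 18.4 FPKM. Stress genes listed beside the BH3-only genes, not all of them direct inducers of these, rose in 4 of 6 cases and fell in 2. Ddit3, which encodes CHOP, went from 19.5 to 62.8 FPKM (limma adjusted p = 4.23e-09), Trib3 from 2.51 to 9.33 and Atf4 from 57.2 to 124. The 5 pathway genes called in NS-DADm hearts were Cdkn1a (13.9 to 34.0 FPKM, limma adjusted p = 0.00538), Ccng1 (402 to 232 FPKM, limma adjusted p = 0.000606), Bnip3 (129 to 191 FPKM, limma adjusted p = 0.00538), Atf4 (55.5 to 72.0 FPKM, limma adjusted p = 0.0341) and Ppif (167 to 130 FPKM, limma adjusted p = 0.0313). Bnip3, a mitophagy receptor, read 160 and 159 FPKM in WT and KO of the other experiment, and the difference of its effects was called (log2 -0.58, limma adjusted p = 6.47e-05).

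The authors' own comparison was set beside these calls. Of the 35 members in the authors' deposited table, 20 passed a fold of 1.25 and a q-value of 0.05 in KO, 15 higher and 5 lower, and limma called 19 of them. The other was Pmaip1, with a fold of 2.83 and a q-value of 0.0219 in the authors' deposited table. In the other direction, several of limma's KO calls did not pass there. Bcl2l1, Bcl2l13, Bad, Bmf, Tnfrsf10b, Fadd and Ripk3 had q-values of 0.163 to 0.401, and Mcl1 and Bcl2l2 stayed under the fold of 1.25. For NS-DADm 0 members passed there, with a lowest q-value of 0.137. The share of all genes past these thresholds was not counted, so it is not known whether 20 or 0 members is unusual. A list of 17 genes that the authors selected under the name anti-apoptosis holds 0 of the 35 members, and as it was chosen on these samples it is not independent evidence of its direction.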

How the data were processed

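Total RNA of 12 mouse heart libraries was measured, 3 in each of 4 groups named by the labels' genotype. The authors deposited FPKM values per gene in 1 table per experiment, with fold changes (signed scores) and q-values of their own. Per the submitters' processing notes, build GRCm38.p6 was used together with RSEM 1.2.12, HISAT2 2.0.4, DESeq2 1.4.5 and Bowtie2 2.2.5, with no role or order given. Per the labels' protocols, SOAPnuke 1.5.2 filtered reads, 60 M a sample on average. Since the files hold FPKM, limma was used and no count test. Date-like, numeric and repeated symbols were left out (24, 7 and 2 of 17076 genes in the KO table, 24 of 17857 in the other). Values missing from the NS-DADm table (1654 to 2212 per library) were taken as 0. Another 3 value columns that no label matches were not used.

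Limma 3.58.1 in R 4.3.3, with trend and robust variances, took log2(FPKM + 1) as input. Genes needed at least 1 FPKM in 3 libraries of the comparison. P-values were adjusted by Benjamini-Hochberg over all genes, with calls at 0.05. The fit was tested on simulated data. The difference of effects used the 15471 genes in both tables. Depth was estimated from the steps of low FPKM values, of which 62.4% to 74.2% fell within 0.15 of whole fragments, too few to rebuild counts. Members and lists were chosen with earlier results of these data known. Full statistics are given for members called in KO with a log2 change of at least 0.5 in size, called in NS-DADm, or called in the difference at 0.5 or more, and up to 3 called genes of each pathway list are named by size of change. Positions are from the GENCODE annotation and promoter windows from RefSeq, both of GRCm38.p6. The labels call the replicates biological without naming animals, so p-values reflect how far these libraries differ, which may be in part technical. Between replicate libraries, chi-square per degree of freedom of the estimated fragments was 1.16 to 1.56 in the KO experiment and 2.62 to 5.56 in the other, where counting noise gives 1. Alternatives were other pseudocounts, filters and scalings, other variance settings, a replicate block and each library left out. Some genes of the pathway lists are counted but not reported by name here.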

Additional observations from a re-analysis of the deposited data

Results flagged for a closer look

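For 18 members the effect in KO and the effect in NS-DADm differed by limma's test of the difference itself at an adjusted p of 0.05, each mutant set against its own WT. All values here are the KO effect minus the NS-DADm effect on the log2 scale. The difference was 1.35 for Bcl2 and 0.24 for Mcl1 among the pro-survival genes. It was 0.59 for Bax and 0.43 for Bak1. Among BH3-only genes Bik differed by 0.80, Bcl2l11 by -0.41 and Bid by 1.10, where the sign of Bid was fixed by the filter, since all its libraries outside KO were under 1 FPKM. The mitochondrial factors Endog and Aifm1 differed by -0.99 and -0.68. Birc3 differed by 0.86, Casp1 by 1.01 and Casp8 by 0.46. Of the receptors, Tnfrsf1a differed by 0.68, Tnfrsf12a by 0.62 and Tnfrsf10b by 0.42. Ripk1 differed by 0.53, Ripk3 by 0.71 and Mlkl by 0.53. In the same test 45.9% of all genes were called.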

How the results depend on the processing

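The counts of called members stayed within 1.5 times their values under every alternative run. In KO they ranged from 16 higher (filter of 3 FPKM, which leaves 6 called members untested) to 23, and from 5 to 9 lower; leaving out 1 library each gave 17 to 21 higher and 5 to 7 lower. In NS-DADm all gave 0. For the difference they ranged from 12 to 16 higher and from 3 to 4 lower. No called member changed sign. The NS-DADm changes that turned were all of uncalled members, 5 of those described in full and 8 others. Leaving out 1 library each gave log2 changes of -0.027 to 0.17 for Bcl2, -0.057 to 0.11 for Bik, -0.096 to 0.081 for Birc3, -0.11 to 0.038 for Tnfrsf12a and -0.071 to 0.18 for Mlkl. With the atrial covariate Bik was at -0.070 and Mlkl at -0.13, and without the 3 libraries rich in atrial markers Bcl2 was at -0.094 and Bik at -0.16; the cause was not tested. Over all genes, NS-DADm calls were 148 higher and 167 lower, against 70 and 94 without a filter, 258 and 238 with the replicate block, 87 and 95 without those 3 libraries, and 47 to 120 and 37 to 128 with 1 library left out. Not every pair of same-numbered libraries deviated together (correlations of -0.056, -0.025 and 0.002 in the KO and 0.0066, 0.38 and 0.44 in the NS-DADm experiment). NS-DADm libraries 2 and 3 correlated best with the WT library of their own number, and the other mutant libraries did not. The labels state no pairing, and these values cannot decide whether the numbers pair the libraries. With the replicate block members split into 21 higher and 6 lower in KO, where Bcl2l13 lost its call, 0 and 0 in NS-DADm, and 15 and 3 in the difference. Depth limits Bid, Pmaip1 and the other members near 1 FPKM most.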

Other observations

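Other marker lists moved in these hearts as well. In KO all 5 myofibroblast markers rose, their summed FPKM going from 105 to 110 in WT up to 434 to 439 (1 of them, Cthrc1, was under 1 FPKM in every WT library, which fixes its direction), and in NS-DADm 0 of 4 tested were called by limma. The 5 immediate early genes tested rose in KO, with sums of 42.3 to 45.6 FPKM in WT and 171 to 178 in KO (the direction of Fos was fixed in the same way), and 1 of 5 rose in NS-DADm. All 4 erythroid markers fell in KO, from sums of 6100 to 7090 FPKM down to 2055 to 2170, and none was called in NS-DADm, where the sums were 5047 to 5999 in WT and 2563 to 4994.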
